A study of Mus musculus with 32 samples.

Results

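A group of 9 cytoskeleton and adhesion genes was followed through 12 rRNA-depleted RNA-seq libraries of mouse embryonic stem cells (ESCs) and induced neurons (iNs): Krt8, Krt18, Krt19, Vim, Acta2, Tagln, Flnc, Cavin1 and Itga3. These 9 of 52636 gene entries were chosen by their measured values, because their RNA was higher in ESCs that carried a deletion of the maternal microRNA cluster miR-379/410 than in control ESCs, and because Vim went the other way in iNs. The values of all 9 genes in the ESC genotype comparison, and those of Vim in the iN genotype comparison, are therefore descriptions without a test. The other measurements, among them the remaining genes in iNs and the change from ESC to iN, were not used in the choice.

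All cells were hybrid mouse cells. The control genotype is labelled Mirg(fl/+) and the deletion genotype Mirg(Delta/+), where Mirg is the host transcript of the microRNA cluster, so the controls carry a floxed allele and not an unmodified one. ESCs (day 0) were grown in medium with 10% FBS and the cytokine LIF, and iNs (day 10) were made from such cells by switching on a TetO-Ngn2 transgene with doxycycline for 10 days. Each of the 4 groups had 3 libraries, lettered A to C. The labels do not say whether the letters stand for separate cultures or clones, so the p-values measure the spread between these libraries, which may be technical.

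Keratins and vimentin are intermediate filament proteins. Keratin 8 pairs with keratin 18 or 19 in the filaments of simple epithelia, and these pairs are among the first keratins made in the early embryo. Vimentin is the filament of mesenchymal cells and of young neurons before neurofilaments take over. Smooth muscle actin (Acta2), transgelin (Tagln) and filamin C (Flnc) bind or form contractile actin fibres, cavin 1 (Cavin1) coats the membrane pits called caveolae, and integrin alpha 3 (Itga3) joins cells to laminin.

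Krt19, Cavin1 and Itga3 lie on chromosome 11, Vim on 2, Flnc on 6, Tagln on 9 and Acta2 on 19. Krt8 and Krt18 lie side by side on chromosome 15, with start sites 23874 bp apart and facing away from each other, and the RefSeq annotation places 2 predicted genes between them (GRCm38.p6). RefSeq promoter windows were at hand for 7 of the 9 genes, all but Krt19 and Tagln. The stretches of 250 bases before the start are shown for the keratin pair, which went up with the deletion in both cell types, for Vim, which went in opposite directions, and for Acta2, which had the widest gap between the cell types. They lie at chr15:102004343-102004592 (minus strand), chr15:102027966-102028215 (plus strand), chr2:13574061-13574310 (plus strand) and chr19:34255374-34255623 (minus strand) and are written 5′ to 3′ on the gene's own strand.
Krt8: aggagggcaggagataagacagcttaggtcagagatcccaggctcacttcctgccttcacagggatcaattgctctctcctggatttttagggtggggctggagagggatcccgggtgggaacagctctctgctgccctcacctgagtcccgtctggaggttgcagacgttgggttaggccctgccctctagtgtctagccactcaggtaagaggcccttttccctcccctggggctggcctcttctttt
Krt18: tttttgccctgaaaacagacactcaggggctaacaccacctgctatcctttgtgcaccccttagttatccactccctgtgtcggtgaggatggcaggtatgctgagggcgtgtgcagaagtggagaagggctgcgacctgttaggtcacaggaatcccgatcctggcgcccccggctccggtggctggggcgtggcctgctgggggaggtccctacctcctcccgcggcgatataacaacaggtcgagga
Vim: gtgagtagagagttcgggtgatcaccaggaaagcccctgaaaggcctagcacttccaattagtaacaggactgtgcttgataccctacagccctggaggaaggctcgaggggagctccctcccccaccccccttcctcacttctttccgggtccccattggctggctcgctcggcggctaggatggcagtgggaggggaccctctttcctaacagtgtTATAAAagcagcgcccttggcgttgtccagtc
Acta2: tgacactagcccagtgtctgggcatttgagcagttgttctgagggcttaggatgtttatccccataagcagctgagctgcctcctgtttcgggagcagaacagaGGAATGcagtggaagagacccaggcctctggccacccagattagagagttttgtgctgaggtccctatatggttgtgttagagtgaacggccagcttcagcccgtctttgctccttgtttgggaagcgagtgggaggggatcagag
Capitals mark matches of a searched motif that lie wholly before the start. Windows of 300 bases (250 before and 50 after the start) were searched on both strands. The core motif of TEAD factors, GGAATG, was found in Acta2, Flnc and Cavin1, and in 14.7% of the 32851 windows of all genes. The TATA box letters TATAAA were found in Vim, 32 bases before the start, and in Krt8, where they run across the start itself, against 13.6% of all windows. The SP1 motif GGGCGG occurred in Flnc, Cavin1 and Itga3, and in 35.7% of all windows. A strict CArG box, the motif of serum response factor, was in none of the 7 genes and in 1.63% of all windows. Only exact matches were counted. The Acta2 stretch above does hold ccctatatgg and ccttgtttgg, each of which differs from a strict CArG box by a changed base. Boxes with a changed base were not searched for in the other windows, so how common they are is not known. These matches are letters in a window, and no binding of a factor was measured there.

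The libraries held 14904735 to 21499106 expected counts, which are the fragments assigned to genes. The host transcript checked the genotype labels: Mirg had 40.6 to 44.3 counts-per-million (CPM, scaled by library size) in control ESCs while the ESCs with the deletion had no count of it, so that it was at least 830-fold lower (floor of 3 counts over the group). In iNs Mirg stood at 30.5 to 37.6 CPM in controls and 0 to 0.101 CPM in deletion libraries. The cell type labels held too. The sum of 10 ESC markers was 2560 to 2663 CPM in control and 2422 to 2565 CPM in deletion ESCs, against 14.7 to 15.9 and 8.58 to 8.98 CPM in iNs, and 10 neuron markers summed to 7806 to 7945 and 7700 to 7825 CPM in iNs.

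The 3 keratins had the largest log2 fold changes between deletion and control ESCs among the 9 genes, although those of Krt8 and Itga3 differed by less than the sum of their standard errors. Krt8 measured 124, 124 and 134 CPM in control ESC libraries A, B and C, and 217, 212 and 204 CPM in the deletion libraries. Every deletion library was above every control library. The log2 fold change was 0.71 ± 0.045 (SE of the model), a ratio of mean CPM of 1.66.

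Krt18, the partner of Krt8, measured 64.6, 61.0 and 66.5 CPM in controls and 115, 108 and 108 CPM with the deletion. Its log2 fold change was 0.77 ± 0.047. Krt19, a second partner of Krt8, was the scarcest of the 9 genes in ESCs, at 13.1, 11.5 and 13.5 CPM in controls and 25.5, 20.4 and 23.1 CPM in deletion libraries. It had the largest and least precise log2 fold change, 0.84 ± 0.093.

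Vim measured 159, 163 and 161 CPM in control ESCs and 233, 243 and 234 CPM in deletion ESCs. The spread within each genotype was small beside the gap between them. Its log2 fold change of 0.54 ± 0.039 was the smallest of the 9.

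The actin-fibre genes moved by similar amounts. Acta2 was at 72.9, 70.8 and 75.1 CPM in controls and 119, 110.0 and 109 CPM with the deletion, a log2 fold change of 0.61 ± 0.047. Tagln, an actin-binding protein of smooth muscle, was at 66.1, 60.0 and 64.9 CPM against 98.7, 96.8 and 98.6 CPM, or 0.61 ± 0.046. Neither gene had overlapping groups. Flnc, a cross-linker of actin, was at 115, 112 and 117 CPM against 180.5, 174 and 171 CPM, or 0.59 ± 0.038. Tagln overlaps Pcsk7 in the RefSeq annotation, and whether the counting used strand is not given in the sources used here.

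Of the membrane and adhesion genes, Cavin1 measured 44.8, 41.4 and 43.4 CPM in controls and 68.1, 67.5 and 66.2 CPM in deletion ESCs, a log2 fold change of 0.62 ± 0.045. Itga3 measured 70.6, 72.4 and 73.7 CPM against 115, 118 and 113 CPM, or 0.65 ± 0.043. The groups stayed apart for both.

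**Figure D1:**
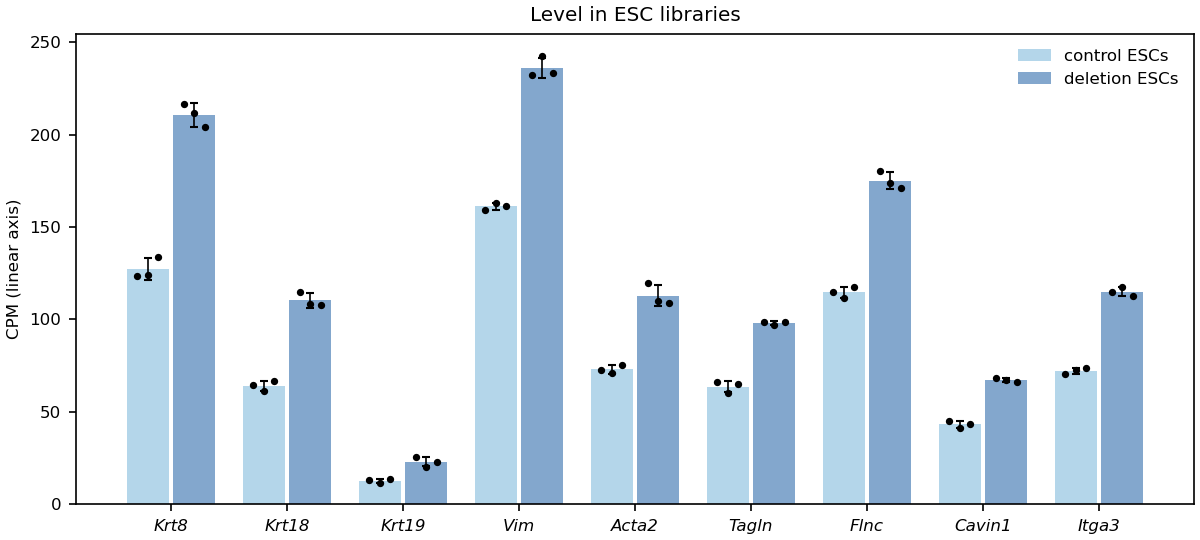
Bars give the mean CPM (linear axis) of each gene in 3 control and 3 deletion ESC libraries, whiskers the SD and dots the single libraries. For each of the 9 genes the 3 deletion dots lie above the 3 control dots, with Krt19 lowest and Vim highest in both genotypes.

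In the plot of ESC levels the deletion libraries of each gene form a narrow set above its controls. Their log2 fold changes ran from 0.54 to 0.84, with a median of 0.62, where the median over all tested genes was -0.002. With each gene counted in each pair of same-lettered deletion and control libraries, 27 of 27 ratios were above 1, from 1.45 to 1.94. The genes share the same libraries, so these ratios are not independent observations. From 0.365% (Krt19) to 1.96% (Vim) of the tested genes had a larger log2 fold change. The genes were chosen for being higher in these very libraries, so the ratios and ranks follow from the choice and are descriptions without a test.

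Across all genes, edgeR's quasi-likelihood test called 309 of 16185 genes at an adjusted p under 0.05 in the ESC comparison (1.91%), 221 up (1.37%) and 88 down. All 9 genes are among the 221 and all have groups that do not overlap, as have 23.9% of all tested genes in either direction. These counts follow from the way the genes were chosen. DESeq2 called 349 genes, 214 up and 135 down, and a model with the library letter as a block called 1019, 518 up and 501 down. The main test did not pair libraries by letter, although same-lettered ESC libraries deviated together. Leaving out 1 library gave 137, 91 and 155 calls without control A, B or C, and 315, 90 and 160 without deletion A, B or C.

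Levels of different genes can be compared per length, in transcripts-per-million (TPM). In control ESCs the order was Vim (104 ± 2.5, SD, n = 3), Krt8 (71.4 ± 4.5), Krt18 (48.3 ± 3.3), Tagln (45.0 ± 6.6), Acta2 (41.5 ± 2.3), Itga3 (15.6 ± 1.2), Flnc (11.8 ± 0.83), Cavin1 (11.7 ± 0.89) and Krt19 (9.65 ± 0.80). The libraries of Krt18 and Tagln, of Tagln and Acta2, and of Flnc and Cavin1 overlapped, so those neighbours have no clear order. In deletion ESCs the 5 most abundant genes came in the same order, from Vim (145 ± 7.3) and Krt8 (115 ± 8.2) to Acta2 (62.8 ± 6.3).

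Keratin and vimentin filaments can be set against each other on this scale. Krt8, Krt18 and Krt19 together made up 54.9%, 54.3% and 57.2% of the TPM of the 3 keratins and Vim in control ESCs, and 59.9%, 58.5% and 60.2% in deletion ESCs. The deletion libraries were all above the control libraries. All of these genes were chosen by their values in the ESC libraries, so this gap is a description. Krt8 and Krt18, which pair in the filament, had a TPM ratio of 1.43 to 1.51 in control and 1.41 to 1.45 in deletion ESCs, so the ranges of that ratio overlapped.

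**Figure D2:**
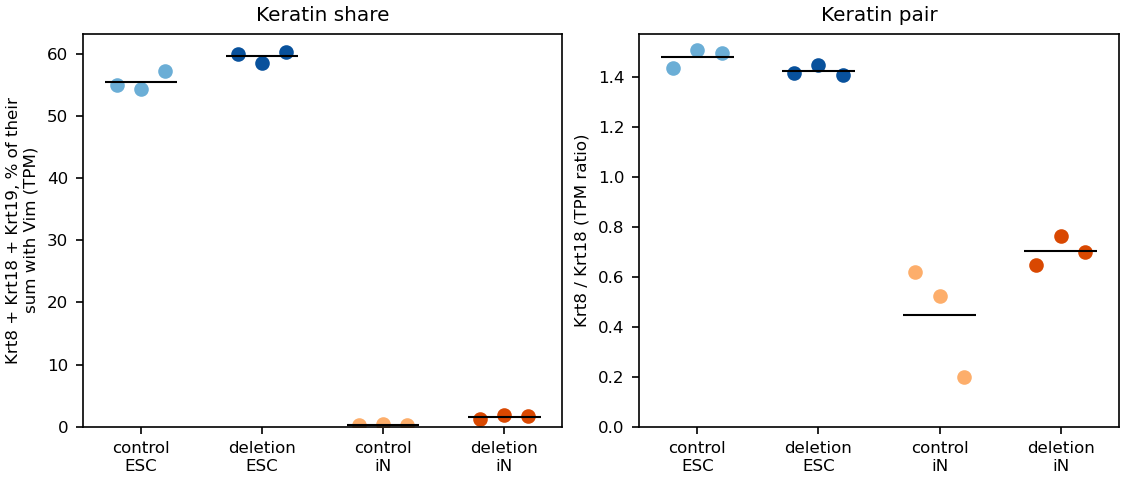
The left panel plots the 3 keratins as a percentage of keratin plus Vim TPM and the right panel the TPM ratio of Krt8 to Krt18, with 1 dot per library and a line at the group mean. The keratin share is 54.3% to 60.2% in ESCs and 1.82% or less in iNs, where 0.257% to 0.484% in controls lie below 1.31% to 1.82% in deletion libraries. Vim is part of the share and was chosen for being lower with the deletion in iNs, so part of that gap follows from the choice.

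Most of these genes were near zero in iNs. The plot of filament shares has the keratins below Vim by a wide margin in every iN library. Between control ESCs and control iNs all 9 genes passed the test, 7 of them lower in iNs and 2 higher, in a comparison where 89.0% of 17247 genes passed, 45.1% lower and 43.9% higher. The 3 control ESC libraries of this comparison are also those used in choosing the genes. In bulk RNA, fewer cells of a type and less RNA per cell cannot be told apart.

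Acta2 showed the widest gap. Its 3 control iN libraries held 0, 1 and 3 counts and its 3 deletion iN libraries none, against 1172 to 1531 counts per library in control ESCs. Mean CPM was 988-fold higher in control ESCs than in control iNs (4 counts in all in the latter, log2 fold change -9.80, or -9.35 without control iN A and -11.04 without control iN C), and at least 2202-fold higher in deletion ESCs than in deletion iNs with a floor of 3 counts over the group. Tagln held 6, 7 and 3 counts in control iNs and 5, 2 and 1 in deletion iNs, and its log2 fold change from control ESC to control iN was -7.70 ± 0.14 (edgeR adjusted p = 6.4e-14).

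The keratins also fell between control ESCs and control iNs, with log2 fold changes of -7.37 ± 0.18 for Krt8, -5.63 ± 0.15 for Krt18 and -6.35 ± 0.22 for Krt19 (edgeR adjusted p of 1.7e-11 or less for each). The values of Cavin1 and Flnc on the same scale were -4.98 ± 0.11 and -3.82 ± 0.086. Flnc still measured 6.89, 8.31 and 9.12 CPM in control iNs, which makes it the best kept of the 7 genes that fell.

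Vim and Itga3 were higher in iNs. Vim reached 620, 601 and 575 CPM in control iNs, all above the control ESC libraries, a log2 fold change of 1.89 ± 0.053 (edgeR adjusted p = 2.3e-12). Itga3 measured 90.6, 99.7 and 97.9 CPM in control iNs, a log2 fold change of 0.41 ± 0.059 (adjusted p = 2.9e-05). In TPM, control iNs held Vim at 410 ± 47 (SD, n = 3) and Itga3 at 19.5 ± 1.4, while the other 7 genes had means of 0.927 or less, and the libraries of neighbours in that order overlapped, other than those of Cavin1 and Tagln.

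**Figure D3:**
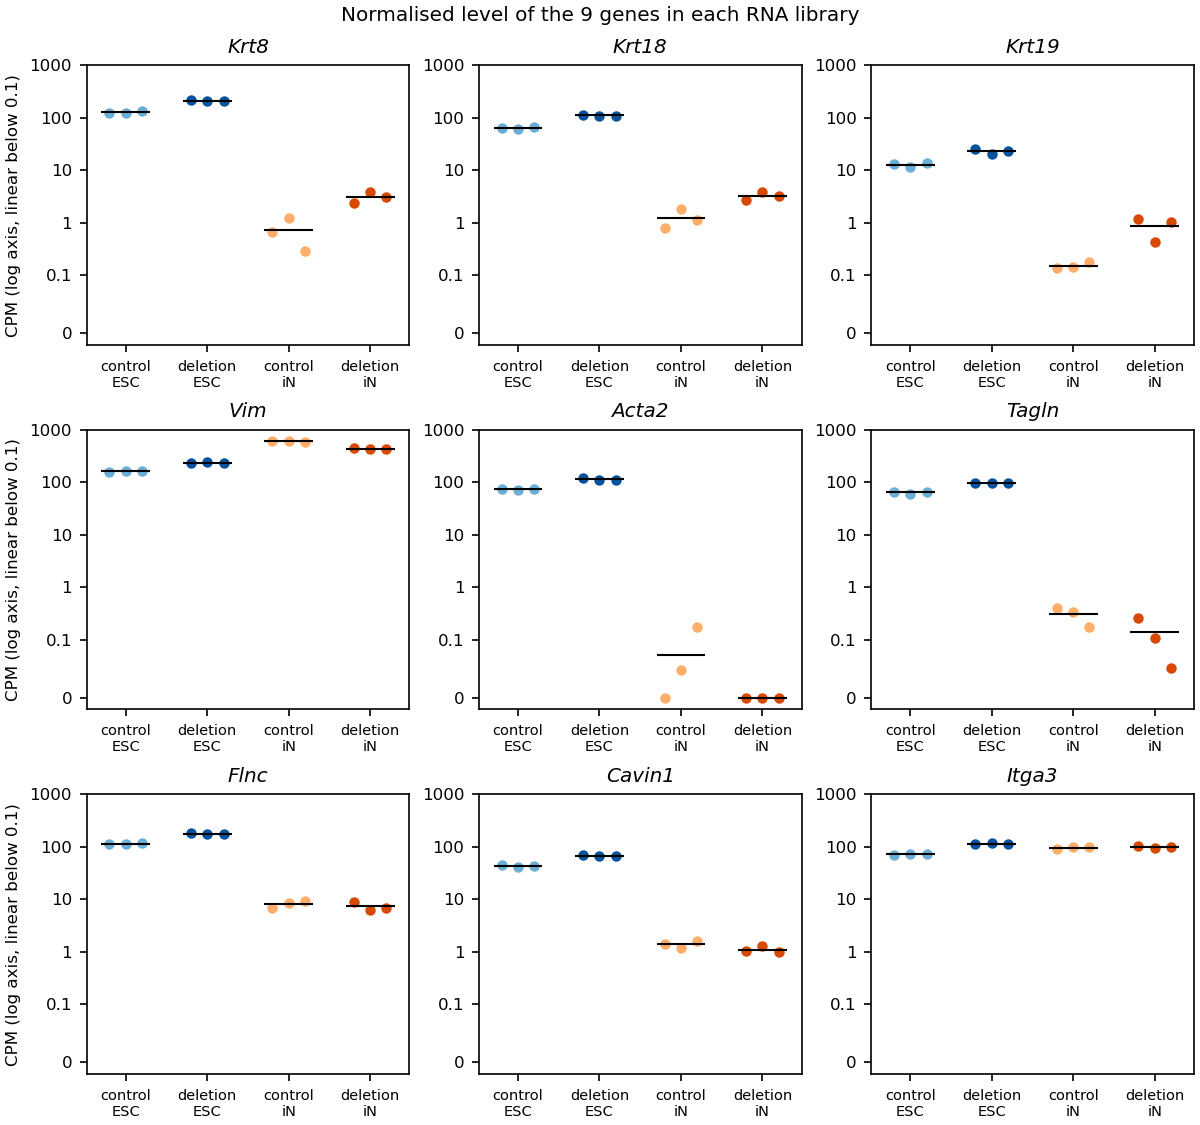
Each panel shows CPM of 1 gene in the 12 libraries (log axis, linear below 0.1), with dots for libraries and a line at the group mean. In 7 genes the level drops from ESC to iN, Acta2 to 0 in all 3 deletion iN libraries, while Vim and Itga3 stay at 90.6 CPM or more in iNs.

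In the plot of all 12 libraries the step between cell types is far larger than the step between genotypes for 7 of the 9 genes. Within iNs the genotype comparison was a measurement that had not been used to choose the genes, except for Vim. Krt8 and Krt18 rose with the deletion in iNs, while Flnc, Cavin1 and Itga3 did not pass the test. Acta2, Tagln and Krt19 had too few counts to enter it. In this comparison 25.6% of 16028 genes passed, 12.4% higher and 13.3% lower with the deletion, so a call by itself is common.

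Krt8 measured 0.669, 1.23 and 0.290 CPM in control iNs, from 10, 26 and 5 counts, and 2.32, 3.85 and 3.04 CPM in deletion iNs. The 3 deletion libraries were above the 3 controls. The log2 fold change was 2.01 ± 0.35 (edgeR adjusted p = 0.00061), and 0.175% of tested genes had a larger one. Krt18 measured 0.803, 1.79 and 1.10 CPM in controls and 2.68, 3.80 and 3.25 CPM with the deletion, again without overlap. Its log2 fold change was 1.34 ± 0.27 (adjusted p = 0.0018). Both levels remained far below those of ESCs, where the deletion libraries had 68.6 times (Krt8) and 34.1 times (Krt18) the mean CPM of the deletion iNs.

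Krt19 followed the same direction on very few reads, with 2, 3 and 3 counts in control iNs and 23, 8 and 20 counts in deletion iNs. The groups did not overlap. The share of all genes without overlap was computed for ESCs (23.9%) and not for iNs, so the separation of the 3 keratins in iNs has no background beside it. The authors' deposited table lists Krt19 in iNs with a log2 fold change of 2.41 and an adjusted p of 8.8e-05.

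Vim went down with the deletion in iNs. Its deletion libraries measured 454, 432 and 425 CPM, all below the 575 to 620 CPM of the controls. The log2 fold change was -0.45 ± 0.052, against 0.54 in ESCs, and the difference between these values was not tested because the gene was chosen by it. In TPM, which depends on what the rest of the library holds, the lowest control (380.2) and the highest deletion library (383) of Vim overlapped slightly.

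Itga3 had almost the same level in both iN groups, with 104, 93.1 and 98.1 CPM in deletion libraries, overlapping the control range. Its log2 fold change was 0.03 ± 0.061 (edgeR adjusted p = 0.72). Flnc stood at 8.68, 6.33 and 6.90 CPM in deletion iNs, or -0.15 ± 0.15 (adjusted p = 0.49), and Cavin1 at 1.01, 1.27 and 0.964 CPM, or -0.35 ± 0.27 (adjusted p = 0.38). Cavin1 rested on 19 to 27 counts per library in iNs, and the smallest difference detectable at this depth was not computed.

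**Figure D4:**
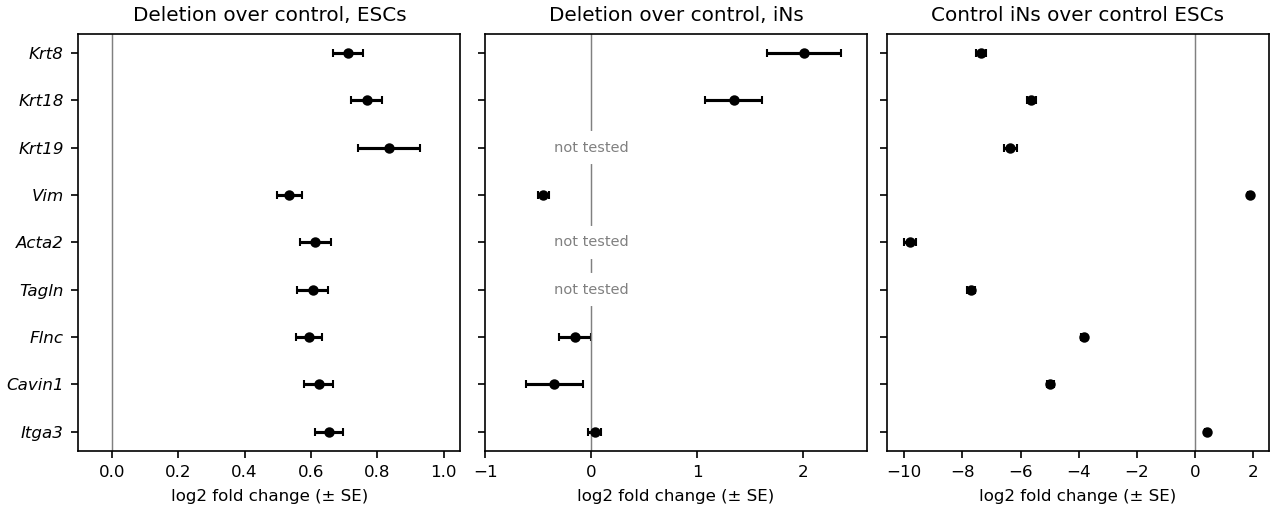
Points are log2 fold changes from edgeR with SE whiskers for the 9 genes in 3 comparisons, each panel with its own axis. In ESCs, where they were chosen for being higher, all 9 lie between 0.54 and 0.84, and in iNs Krt8 (2.01) and Krt18 (1.34) lie to the right of 0 and Vim (-0.45) to the left.

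In the plot of fold changes the ESC panel is set by the choice of the genes. Other genes of the same structures were read from lists of pathway genes, which were drawn up with earlier results of these data known. Lists are described by their counts of calls beside those of all genes. In ESCs 1.37% of all tested genes rose and 88 of 16185 fell, and in iNs 12.4% rose and 13.3% fell. Keratin filaments are anchored at desmosomes by plakins and plakophilins. Of 13 tested linker and desmosome genes, 4 rose and 0 fell in deletion ESCs, with a median log2 fold change of 0.16. They were Dsp (0.47 ± 0.045, edgeR adjusted p = 0.0019), the plakin that ties keratin to the desmosome, Ppl (0.44 ± 0.072), Perp (0.34 ± 0.059) and Pkp2 (0.24 ± 0.044). Without any 1 of control A, control B, deletion B or deletion C only Dsp was called in this list, without control C Dsp and Ppl were, and with the library letter as a block 7 rose and 1 fell.

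The same 4 linker genes rose in deletion iNs, where 5 of 12 rose and 2 fell, with a median of 0.30. Of all genes 12.4% rose and 13.3% fell in that comparison. Dsp rose by 1.02 ± 0.16 on the log2 scale (edgeR adjusted p = 0.00020), from a mean of 4.11 to 8.40 CPM. Plec, the large linker between filament systems, rose by 0.53 ± 0.060, from 386 to 559 CPM, while its ESC value of 0.16 ± 0.041 did not pass (adjusted p = 0.097) but passed with the library letter as a block and without deletion A. The genotype comparisons in ESCs and iNs share no library. Of all 190 genes that rose in ESCs and were tested in iNs, 36 (18.9%) rose in iNs and 53 (27.9%) fell, and the 36 are 2.27% of the 1589 genes that rose in iNs.

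Of 5 other keratins tested in ESCs, 0 passed by edgeR in either direction and 0 by DESeq2, while 2 (Krt42 and Krt7) had an unadjusted p under 0.05. Krt17, a keratin of stressed and appendage epithelium, had means of 10.9 and 9.84 CPM in control and deletion ESCs, and Krt7 had 3.50 and 4.57 CPM. Among other cytoplasmic intermediate filaments 2 of 9 rose in ESCs, against 1.37% of all genes. They were the progenitor filament Nes (0.40 ± 0.040) and the neurofilament Nefl (0.33 ± 0.056). When any 1 of control A, B or C or deletion B or C was left out, 1 of these was called. Nes also rose in iNs (0.88 ± 0.15), against the direction of Vim, and Synm fell there (-0.28 ± 0.059).

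Actins and actin-fibre proteins were the list with most calls in ESCs, where 1.37% of all genes rose. In this list 14 of 34 rose and 1, Lima1, fell, with a median of 0.26. Examples are the skeletal muscle actin Acta1 (0.72 ± 0.066), the focal adhesion protein Zyx (0.48 ± 0.050), tropomyosin Tpm1 (0.47 ± 0.039) and Csrp1 (0.46 ± 0.055). The cytoplasmic actins Actb and Actg1 rose by 0.17 ± 0.032 and 0.27 ± 0.035. The block model called 21 up and 1 down, and leaving out control B or deletion B left 7 up and 0 down.

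In iNs the same list split. Of 29 tested genes 7 rose and 9 fell, with a median of -0.06, where 12.4% of all genes rose and 13.3% fell. Of the 13 that rose in ESCs and were tested in iNs, 5 (38.5%) rose in iNs as well, among them Flna, Palld and Zyx, and 6 (46.2%) fell, among them Actb, Actg1 and Vcl, against 18.9% and 27.9% over all genes. Palld, which organises actin bundles, had the largest rise (1.60 ± 0.094, edgeR adjusted p = 2.1e-08), and Flna, a close relative of Flnc, rose by 0.69 ± 0.084 while Flnc did not pass.

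**Figure D5:**
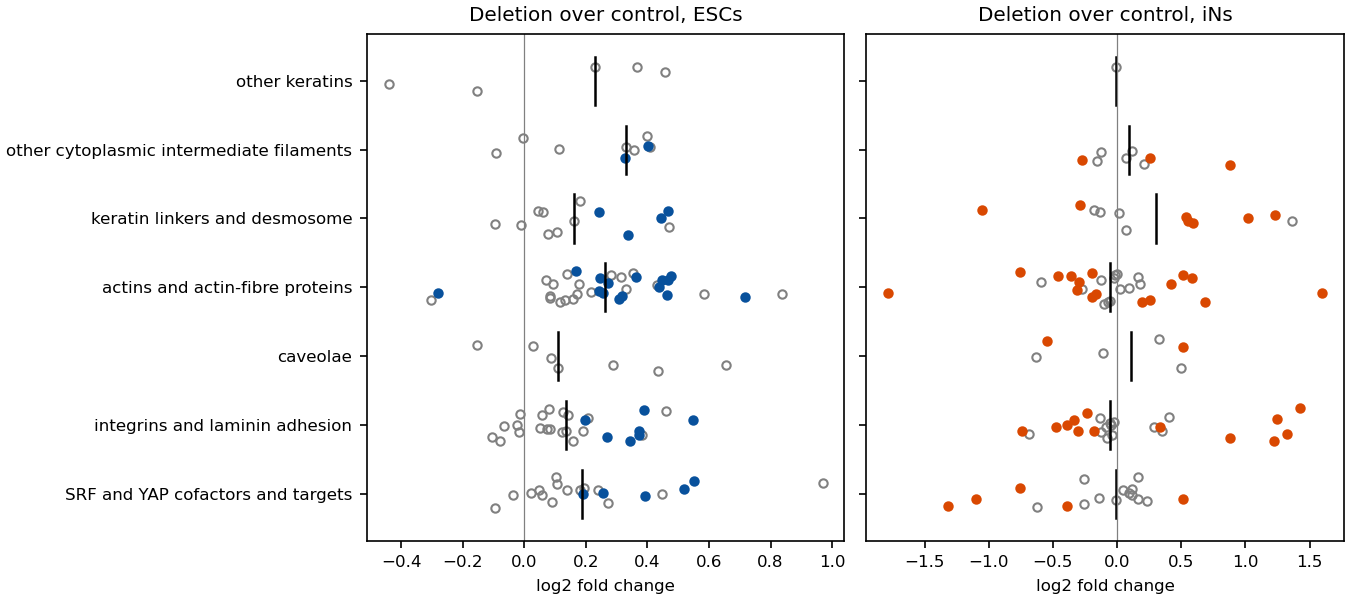
Each dot is the log2 fold change (deletion over control) of 1 gene of a pathway list, filled where the edgeR adjusted p was under 0.05, and black ticks are list medians. In ESCs the actin list has 14 filled dots right of 0 and 1 left, while in iNs it has 7 right and 9 left. Vertical scatter within a list has no meaning.

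Adhesion genes followed Itga3 in part. Of 27 integrin, laminin and focal adhesion genes, 7 rose and 0 fell in ESCs (median 0.14), against 1.37% of all genes up. Those 7 were led by Parva (0.55 ± 0.052), a partner of integrin-linked kinase, and by the fibronectin receptor subunit Itga5 (0.39 ± 0.040). Leaving out control A, control B or deletion C left 3, and leaving out deletion B left 2. In iNs, where Itga3 stayed level, 6 of 25 rose and 7 fell (median -0.05), against 12.4% and 13.3% of all genes. The laminin chains Lamb1 (1.32 ± 0.089) and Lama5 (1.25 ± 0.12) were up and Lamb2 (-0.74 ± 0.14) was down. Of 7 caveola genes 0 passed by edgeR in ESCs, 1 passed by DESeq2 and 2 had an unadjusted p under 0.05, so Cavin1 had no called companion there in the main test.

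Serum response factor (SRF) and the YAP and TEAD factors are textbook regulators of actin-fibre genes. Of 20 cofactors and targets on that list, 5 rose and 0 fell in ESCs (median 0.19), against 1.37% of all genes up. Among the 5 were Ccn1 (0.55 ± 0.048), Vgll4 (0.52 ± 0.099), Amotl2 (0.39 ± 0.045) and Ccn2 (0.26 ± 0.046). Leaving out any 1 of control A, control B, deletion B or deletion C left 2, leaving out control C left 3, and a fit of all 12 libraries called 3. In iNs 1 of 17 rose, Tead1 (0.52 ± 0.064), and 4 fell, among them Ccn1 and Srf (-0.39 ± 0.10), against 12.4% of all genes up and 13.3% down, so these counts are not a result about the list. DESeq2 called 1 of them down, as did the fits without control B, deletion A or deletion C, and 2 were down without control A or deletion B.

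Markers of other cell types were measured in the same libraries, since keratins and actin-fibre genes are abundant in several of them. Over all genes 1.37% rose in deletion ESCs. Fibroblast or feeder markers (12 genes) summed to 59.6 to 67.6 CPM in control and 98.5 to 108 CPM in deletion ESCs, and 2 of 9 tested rose, Col1a1 (from 45.5 to 77.4 mean CPM) and Col3a1 (from 4.45 to 7.39). Col3a1 lost its call when control A, B or C or deletion B or C was left out. Most of the sum was Col1a1. Fap had no count in ESCs, Lum and Dcn were at 0.183 and 1.24 CPM in controls and 0.292 and 1.21 CPM in deletion ESCs, and Thy1 was at 4.65 and 4.44 CPM. Twist2 (from 0.795 to 1.60 mean CPM) and Pdgfrb (from 1.08 to 1.90) were higher in deletion ESCs at an unadjusted p under 0.05 only, which 4 of the 9 met, and the list's median log2 fold change was 0.36.

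Smooth muscle markers (8 genes) summed to 59.0 to 63.3 and 67.8 to 73.3 CPM in control and deletion ESCs, with 0 of 7 tested past the edgeR threshold, 0 by DESeq2 and 2 at an unadjusted p under 0.05. The list's median log2 fold change was 0.33. Those at an unadjusted p under 0.05 were Smtn (37.0 and 42.1 mean CPM in control and deletion ESCs), which passed with the library letter as a block, and Cnn1 (12.5 and 14.7). The defining members Myh11 and Myocd were at 0.580 CPM or less in both groups. Trophectoderm markers (10 genes) summed to 81.5 to 85.2 and 76.1 to 79.2 CPM, with 0 of 10 past the edgeR threshold, 0 by DESeq2 and 3 at an unadjusted p under 0.05. Primitive and parietal endoderm markers (12 genes) summed to 342 to 355 and 368 to 399 CPM, with Col4a1 and Col4a2 up. Neither was called without control B or deletion B, only Col4a2 was without control A or in the fit of all 12 libraries, and with the block Sparc rose as well and 1 gene fell. At an unadjusted p under 0.05 were 7 of the 10 endoderm markers tested, with Dab2 and Sparc also higher in deletion ESCs. Foxa2 (0.931 and 0.341 mean CPM in control and deletion ESCs), Sox7 (1.68 and 0.987) and Lama1 (109 and 96.3) were lower. Foxa2 rested on 52 counts in all in control and 20 in deletion ESCs, near the limit of the filter. Of 10 ESC markers 2, Esrrb and Nanog, fell by 0.23 each on the log2 scale. Both lost their call when control A, B or C or deletion B or C was left out and in the fit of all 12 libraries, while 4 fell with the block.

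Neuron markers (10 genes) summed to 249 to 257 CPM in control and 285 to 289.8 CPM in deletion ESCs, with Nefl called (from 75.2 to 95.3 mean CPM), and radial glia and astrocyte markers (9 genes) to 134 to 136 and 159 to 167 CPM, with Nes called (from 73.3 to 98.0). The groups did not overlap in either sum. The median log2 fold change was -0.04 over the 8 tested neuron genes and 0.07 over the 5 tested glia genes. Of the 4 neuron genes at an unadjusted p under 0.05, Nefl, Stmn2 and Tubb3 were higher with the deletion. Syn1 was lower (11.1 and 9.03 mean CPM in control and deletion ESCs). Mitochondrial RNA made up 1.99% to 2.27% of counts in control and 1.47% to 1.84% in deletion ESCs. The part of these shifts in the results for the 9 genes was not tested.

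In iNs the trophectoderm sum was 1.81 to 2.96 CPM in controls and 4.54 to 6.96 CPM in deletion libraries, alongside the rise of Krt8 and Krt18, with Tfap2a and Tfap2c called. Neither was called without deletion B, and DESeq2 called only Tfap2a. Neurog2, the gene of the inducing transgene, measured 214 to 241 CPM in control iNs and 583 to 648 CPM in deletion iNs, so the genotypes also differed there. Mesoderm markers (10 genes) summed to 5.86 to 6.51 and 10.6 to 10.7 CPM. Of 3 tested, Tal1 rose from a mean of 3.91 to 8.15 CPM. Kdr fell from 0.822 to 0.360, a call lost by DESeq2 and without any 1 iN library. It entered the test through its control libraries. Fibroblast or feeder markers summed to 67.2 to 76.6 and 83.0 to 93.9 CPM, endoderm markers to 83.9 to 94.8 and 102 to 123 CPM. Smooth muscle markers summed to 7.95 to 8.59 and 8.72 to 10.6 CPM. The ESC marker sum was lower with the deletion, and the neuron and glia sums overlapped. The part of any of these in the keratin and Vim results was not tested.

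The genes most like each of the 9 were found among 10729 tested genes by the root mean square difference of log2 CPM, each gene centred on its own mean over the 12 libraries. This likeness mostly reflects the step between cell types, and it is a description. Krt18 was nearest to Dsp (0.26), Lama5 (0.35) and Socs3 (0.41), and Krt19 to Krt18 (0.48), Dsp and Lama5. Krt8 was nearest to Tfap2c (0.50), Ccna2 and Fgfr2, with Krt18 at 0.80.

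Itga3 had the closest neighbour of all, Zyx (0.096), followed by Lmna (0.12) and Tmcc3 (0.15). Vim was nearest to Fdps (0.13), Tes and Slc5a3 (both 0.13). Acta2 was nearest to Utf1 (0.33), Dnmt3l (0.35) and Zscan10 (0.38), and Tagln to Epcam (0.32), Rbpms2 and Gsta4. Flnc was nearest to Pawr (0.18), Fat1 and Rpa1, and Cavin1 to Ccnd3 (0.22), Col5a1 and Dusp9.

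Binding of Argonaute 2 (Ago2), the protein that carries microRNAs to their targets, was mapped by seCLIP in control-genotype iNs that expressed extra HA-tagged Ago2, with untagged Ago2 as background. The authors' deposited regions number 22400, of which 2802 had an authors' log2 fold over the untagged pulldown above 1 with p under 0.05 (unadjusted). Vim held 28 of the 22400, of which 4 had an authors' log2 fold above 0 and 1 met both limits. That one, at chr2:13582611-13582615 (mm10, the same assembly as GRCm38), lies 211 bases before the 3′ end of the gene with a log2 fold of 1.11, and 2 adjoining regions closer to the end had 0.78 and 0.34.

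Acta2 held 5 regions and Tagln 1, all on the minus strand, and all 6 met both limits in the authors' deposited tables. Those of Acta2 lay 5790 to 14954 bases before the 3′ end, with authors' log2 folds of 1.36 to 2.58, and that of Tagln, where Pcsk7 overlaps, had 2.31. The RNA-seq libraries of control iNs held 4 counts of Acta2 and 16 of Tagln in all. No region lay in Krt8, Krt18, Krt19, Flnc, Cavin1 or Itga3, and none of the 997 regions that the authors matched to microRNAs of the deleted cluster was assigned to any of the 9 genes.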

How the data were processed

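RNA was measured in 12 rRNA-depleted libraries. Per the submitters' processing notes, the tools were cutadapt 1.4.2, STAR 2.4.1d, RSEM 1.2.30, SAMtools and DESeq2 with the mm10 build. The authors deposited RSEM expected counts and TPM per gene and tables of log2 fold changes, adjusted p-values and mean normalised counts, whose signal is an average over libraries. The authors' CLIP regions carry a −log10 p and a log2 fold. Expected counts (14.7% of those above 0 not whole) were rounded and tested with edgeR 4.0.16 (R 4.3.3): genes were kept by filterByExpr (minimum count 10), libraries scaled by TMM, and quasi-likelihood p-values adjusted by Benjamini-Hochberg over all genes tested, with a threshold of 0.05. The SE is the log2 fold change divided by the root of F. CPM was scaled over all 12 libraries. On simulated counts with known changes the ESC test was checked. DESeq2 1.42.0, other scaling and filters, posterior mean counts, a replicate block and leaving out each library were alternatives.

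The 9 genes and all lists were chosen with earlier results of these data known. Named genes are the 9, Mirg, the markers, up to 4 called genes per list and comparison with the largest change and a mean log2 CPM of 2 or more, and the 3 nearest genes; Lima1, Actb, Actg1 and the members of list overlaps were named after their values were seen. In ESCs same-lettered libraries deviated together (r = 0.35, 0.11 and 0.14). Different letters gave -0.25 to 0.12, the highest between control B and deletion C. The letters were taken to pair the ESC libraries because every same-lettered value was above 0.1, although that unlike pair exceeded B with B. The main ESC test, its SEs and its list counts left this pairing out, and the replicate block gives the paired counts. In iNs same-lettered libraries did not deviate together (r = -0.05, 0.02 and 0.04). Per-library small RNA counts and the CLIP regions were used only for values.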

Additional observations from a re-analysis of the deposited data

Results flagged for a closer look

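Vim moved in opposite directions with the deletion in the 2 cell types. Its log2 fold change was 0.54 in ESCs and -0.45 in iNs, with all 3 deletion libraries above all 3 controls in ESCs and below them in iNs. The difference between these values was not tested, since Vim was chosen for it.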

How the results depend on the processing

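The number of genes called between deletion and control ESCs was 309 and moved with the processing: 504 without a filter on low counts, 1019 with the replicate block, and 90 to 315 when 1 library was left out. The other counts of called genes stayed within 1.5 times of their values in all 13 alternatives. Under the replicate block the calls of Krt8, Krt18, Flnc, Cavin1 and Itga3 in iNs did not change. Nor did those of the 9 genes between control iNs and control ESCs. Over the 13 alternatives the log2 fold change in iNs ran from 1.63 to 2.69 for Krt8 (adjusted p at most 0.0049) and from 1.13 to 1.74 for Krt18 (at most 0.012). Vim ran from 0.51 to 0.55 in ESCs and from -0.48 to -0.43 in iNs. For Krt19, Acta2 and Tagln the depth in iNs, at most 23 counts per library, limits any statement on genotype. Testing without a filter shifted the median over all genes between control ESCs and control iNs to -0.24, and the other alternatives left it within 0.1 of 0.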

Other observations

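The small RNA libraries also held fragments assigned to the 9 genes. Vim had 5.55, 10.0 and 12.9 fragments-per-million in control iNs and 17.4, 22.0 and 15.0 in deletion iNs, from 22 to 72 fragments per library. On this scale the deletion libraries were above the controls, whereas the Vim RNA of the same groups was lower. The fragments themselves overlapped, with 51 in control C and 49 in deletion C. The deletion iN libraries had smaller totals, 3038112 to 3265640 against 3582951 to 3965064 in controls. In ESCs Vim stood at 0.792 to 1.21 fragments-per-million in controls and 0.784 to 2.05 in deletion libraries. Of the other 8 genes none had more than 20.01 fragments summed over the 3 libraries of a group. No test was made on these fragments.

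Krt17 and Krt42 had the highest means in control ESCs among the other keratins that were tested, at 10.9 and 5.94 CPM. Krt17 had no count in control iNs, at least 191-fold lower with a floor of 3 counts over the group. Epcam, an adhesion molecule of epithelia and ESCs on the linker list, was at 150 mean CPM in control ESCs and 0.528 in control iNs.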
